A study of Mus musculus with 8 samples.

Results

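The 36 genes described here encode kinases, checkpoint proteins, kinetochore subunits, motors and cytokinesis factors of cell division. They were taken from a list of G2/M, spindle and kinetochore genes and matched by symbol to the Ensembl identifiers of the deposited tables, and all 36 were found among 29713 measured genes. Each of the 36 also belonged to the 15686 genes whose mean over the libraries reached 1 TPM (a transcript level corrected for gene length and scaled to the same total in every library), called expressed genes below. RNA was sequenced from 8 mouse libraries, 1 per group, so differences could not be set against replicates, and p-values are left out. C57 mice gave the brain regions cerebellum, cortex and hippocampus, and the libraries named glia and neuron also came from C57 brain. Fibroblasts of embryos (MEF) made up the libraries ICR MEF and OG2 MEF, taken at day 13.5 of development from the strains ICR and OG2. The last library was labelled R1 ESCs, embryonic stem cells with the inner cell mass as source and the strain 129X1 x 129S1. No genetic change or treatment is named in the labels, and the sources used here give neither the age and sex of the animals nor the way glia and neurons were isolated.

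A cell that enters mitosis activates the kinase Cdk1 with its cyclins, condenses its chromosomes and builds a spindle whose microtubules attach to kinetochores, the protein plates on the centromeres. The spindle checkpoint holds anaphase until the attachments are made, after which the anaphase-promoting complex marks securin and cyclin B for destruction and the midzone and contractile ring divide the cell. Most of these genes are transcribed mainly in G2 and mitosis, while neurons of the mature brain have left the cycle and glial and fibroblast cultures can divide.

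The promoters are shown first because many of these genes are known to share 2 sequence words near their start sites. One is the cell cycle genes homology region (CHR), with TTTGAA as its main form, TTCGAA as a variant and TTTAAA as a further form, which is known as a contact of the DREAM and MuvB complexes. The other is CCAAT, known as a contact of the factor NF-Y. RefSeq windows of 250 bases before to 50 bases after the start (GRCm38.p6) were matched by symbol for 28 of the 36 genes, in 30 windows. Ccna2, Cdc25c, Foxm1, Aurkb, Incenp, Spc24, Tpx2 and Kif20a had no match in the table. Both strands were searched, matches of different words may overlap, and a window was counted once for a word however many matches it held. The windows of Cdk1, Ccnb2 and Top2a, genes with high levels in glia and the MEF libraries, and those of Anln and Pttg1, whose levels followed other orders, are given 5′ to 3′ on the strand of the gene, with every CHR form and CCAAT (or ATTGG, its other strand) in capitals.
Cdk1, chr10:69352863-69353162, minus strand: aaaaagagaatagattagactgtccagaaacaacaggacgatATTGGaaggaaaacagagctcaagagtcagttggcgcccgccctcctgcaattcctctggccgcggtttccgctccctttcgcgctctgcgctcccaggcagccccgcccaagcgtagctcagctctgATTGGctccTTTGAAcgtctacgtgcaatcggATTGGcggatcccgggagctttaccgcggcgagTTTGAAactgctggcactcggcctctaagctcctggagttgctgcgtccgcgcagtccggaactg
Ccnb2, chr9:70421505-70421804, minus strand: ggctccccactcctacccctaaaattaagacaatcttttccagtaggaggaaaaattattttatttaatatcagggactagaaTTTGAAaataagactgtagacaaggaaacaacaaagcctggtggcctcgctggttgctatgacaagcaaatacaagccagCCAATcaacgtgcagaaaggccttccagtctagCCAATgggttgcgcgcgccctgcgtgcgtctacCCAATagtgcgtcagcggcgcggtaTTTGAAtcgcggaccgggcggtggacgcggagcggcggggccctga
Top2a, chr11:99024140-99024439, minus strand: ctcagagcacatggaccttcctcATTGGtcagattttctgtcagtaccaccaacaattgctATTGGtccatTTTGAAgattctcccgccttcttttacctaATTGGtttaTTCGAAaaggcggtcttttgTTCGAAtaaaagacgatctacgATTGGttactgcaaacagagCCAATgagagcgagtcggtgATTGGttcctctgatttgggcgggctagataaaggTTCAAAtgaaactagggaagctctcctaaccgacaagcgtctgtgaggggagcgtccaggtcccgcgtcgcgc
Anln, chr9:22389157-22389456, minus strand: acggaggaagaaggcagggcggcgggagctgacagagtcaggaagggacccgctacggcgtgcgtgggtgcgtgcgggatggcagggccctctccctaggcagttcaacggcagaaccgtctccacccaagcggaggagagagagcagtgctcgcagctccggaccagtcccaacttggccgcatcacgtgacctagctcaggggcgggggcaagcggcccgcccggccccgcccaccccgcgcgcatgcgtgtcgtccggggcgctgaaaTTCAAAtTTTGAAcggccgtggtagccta
Pttg1, chr11:43425932-43426231, minus strand: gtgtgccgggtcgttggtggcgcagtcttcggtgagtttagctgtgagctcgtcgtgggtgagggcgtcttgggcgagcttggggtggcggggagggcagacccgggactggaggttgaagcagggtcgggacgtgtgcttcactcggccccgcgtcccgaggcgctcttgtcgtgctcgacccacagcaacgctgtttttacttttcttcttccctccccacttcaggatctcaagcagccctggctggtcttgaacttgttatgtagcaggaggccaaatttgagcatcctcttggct

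Cdk1 and Ccnb2 each held 2 CHR forms and 3 CCAAT words, and Top2a held 4 and 6. Anln held 2 CHR forms and no CCAAT, and Pttg1 held neither word in its window. A CHR form was found in 90.0% of the 30 windows and in 28.8% of all 32851 windows of the table. For the form TTTGAA the shares were 76.7% and 17.9%, and for TTTAAA 30.0% and 13.2%, while TTCGAA was in 3 of the 30 windows and in 1.6% of all. CCAAT occurred in 76.7% of the windows of these genes and 37.4% of all windows. A CHR form together with 2 or more CCAAT words was present in 53.3% against 3.3%, for 15 genes. In a narrower stretch, chosen after the matches were seen, a CHR form began between 50 bases before and 44 bases after the start in 80.0% of the 30 windows and 8.6% of all. Nuf2, Nusap1 and Pttg1 had no CHR form in their windows, and Anln, Birc5, Kif2c and Ndc80 joined them in having no CCAAT. For Kif2c, Cdca8, Pttg1 and Cenpa the gene as GENCODE M21 annotates it begins over 100 bases upstream of the RefSeq start, and the Pttg1 window, 270 bases downstream, lies wholly inside that gene, so these windows hold the letters at 1 of the annotated starts. A match describes the letters of the window and is neither a site nor a cause.

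Total expected counts (read counts estimated per gene) ran from 2147004 in the library labelled R1 ESCs to 5864673 in glia, so that 3 counts on 2000 bases of transcript amount to 0.461 to 0.943 TPM, depending on the library. The labels were checked against marker genes. All 8 neuronal markers reached 10 TPM in the brain regions and in neuron, and 2 of 8 did so in glia, Stmn2 at 288 TPM and Tubb3 at 39.6 TPM, while Snap25 was at 0.73 TPM and Rbfox3 at 0 there. In glia 6 of 7 astrocyte markers reached 10 TPM (Gfap at 1492 TPM), while S100b was at 6.02 TPM, against 157 to 883 TPM in the brain regions. Of 6 neural progenitor markers 3 reached 10 TPM in glia (Nes at 562 TPM), while Eomes and Atoh1 were at 0. Of 6 oligodendrocyte precursor markers 2 did so, Olig1 at 631 TPM and Olig2 at 102 TPM, while Sox10 was at 0. The 5 smooth muscle and pericyte markers summed to 7058 TPM in glia, against 6834 and 8230 TPM in the MEF libraries, 88.4 to 97.2 TPM in the brain regions and 20.5 TPM in neuron. Acta2, Tagln and Cnn1 carried the sum in glia, while Rgs5 (2.62 TPM) and Myh11 (1.59 TPM) were lower there than in the brain regions. All 7 fibroblast markers reached 10 TPM in both MEF libraries, at sums of 8834 and 7664 TPM. In glia 4 of 7 did so, at a sum of 234 TPM, and in the library labelled R1 ESCs 2 of 7, at 142.7 TPM. The brain regions had sums of 47.7 to 77.5 TPM. Of 7 microglia markers 6 reached 10 TPM in glia, at a sum of 476 TPM, against 113.6 to 398.5 TPM in the brain regions. Smooth muscle and pericyte markers summed to 326 TPM in the library labelled R1 ESCs. In the library labelled R1 ESCs 4 of 8 pluripotency markers (Zfp42, Esrrb, Dppa5a and Lin28a) were at 0, while Pou5f1 was at 20.2 TPM and Nanog at 10.3 TPM. That library is therefore named by its label throughout. It also had fewer genes at high levels: 26.3% of expressed genes reached 10 TPM in it, against 47.0% in neuron and 52.0% to 68.0% in the other libraries.

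The 36 genes summed to 2903 TPM in glia, 1813 TPM in ICR MEF and 1640 TPM in OG2 MEF. The sum was 890.5 TPM in the library labelled R1 ESCs, and it lay at 175 TPM in cerebellum, 137 TPM in cortex, 175 TPM in hippocampus and 172 TPM in neuron. Glia and the MEF libraries were thus high, the brain regions and neuron low, and the library labelled R1 ESCs lay between them. Per 100000 expected counts the genes took 366 counts in glia (95% Clopper-Pearson interval 361 to 371), 244 in ICR MEF (239.7 to 249), 218 in OG2 MEF (214 to 222) and 189 in the library labelled R1 ESCs (184 to 195). In the brain regions and neuron they took between 11.99 and 16.6 counts per 100000. These intervals, like all others here, cover counting error only, and fewer dividing cells cannot be told apart from less RNA per cell in such bulk libraries.

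A median gene of the 36 stood at 66.9 TPM in glia, 38.03 TPM in ICR MEF, 29.6 TPM in OG2 MEF and 6.20 TPM in the library labelled R1 ESCs. In the brain regions and neuron the medians lay between 1.28 and 1.43 TPM. Glia was the highest of the 8 libraries for 30 of the 36 genes, against 20.9% of expressed genes. The lowest of glia and the MEF libraries lay above the highest of the brain regions and neuron for 35 of the 36 genes, the exception being Pttg1, against 14.9% of expressed genes. In the brain regions Pttg1, Anln and Incenp made up most of the sum, and in neuron Pttg1 alone did so, at 106 of 172 TPM. Without these 3 genes, chosen after their values were seen, the sum in the brain regions and neuron fell to between 52.7 and 63.7 TPM, while glia kept 2709 TPM.

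**Figure D1:**
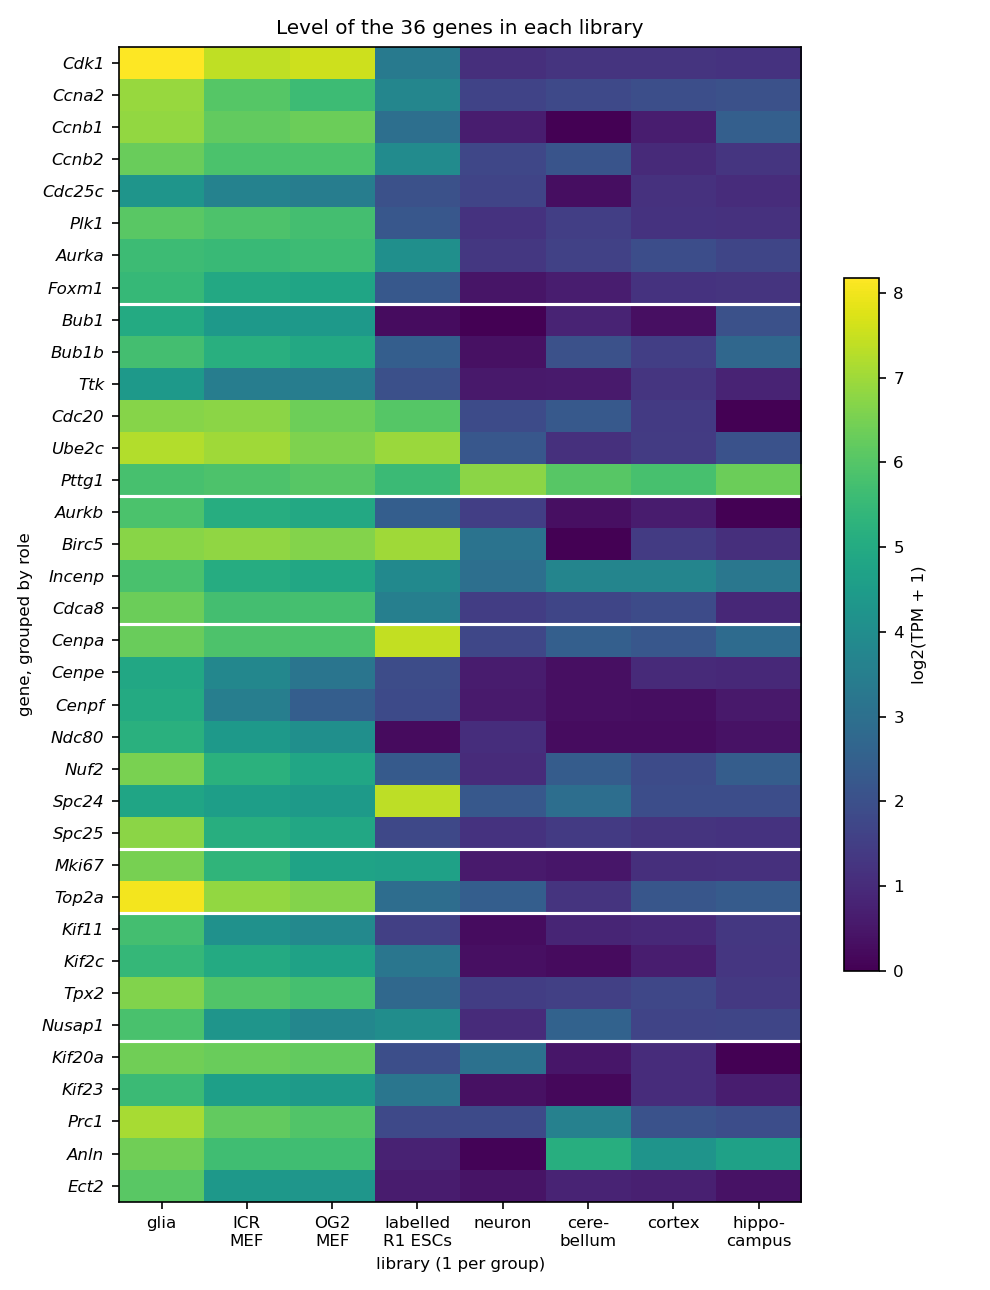
Level of each of the 36 genes (rows, grouped by role and split by white lines) in each library (columns), as log2(TPM + 1) in colour. Glia and both MEF columns are bright in nearly every row, the brain regions and neuron are dark except for Pttg1, and except for Anln and Incenp in the brain regions, and the library labelled R1 ESCs is mixed, with Cenpa, Spc24 and Birc5 as its brightest rows.

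A gene counted as called between 2 sides if all libraries of the upper side reached 10 TPM and the gap between the nearest libraries of the sides was 4-fold or more, after 1 was added to each TPM. Folds are ratios of TPM between those nearest libraries. In neuron 35 of the 36 genes were lower than in glia, where the same rule called 21.8% of expressed genes lower, and none was higher (7.41%). The median log2 ratio of neuron to glia was -4.94 for the 36 genes and -0.74 for all expressed genes. Pttg1 was the gene not called. In glia 33 of the 36 genes were higher than in all 3 brain regions (5.0% of expressed genes) and none was lower (6.54%), with a median log2 ratio of 4.74 against -0.16. Both MEF libraries were above all brain regions for 28 of the 36 genes (4.56% of expressed genes), and none was lower (11.6%), with a median of 3.84 against -0.76. Calls in the other direction were open to few of the 36 genes. Only 1 of them reached 10 TPM in neuron (47.0% of expressed genes) and 2 in hippocampus (66.8%), so the absence of such calls says little. Under the other scalings and with the length trend removed, the median of neuron to glia lay between -4.75 and -4.10 for the 36 genes and between -0.56 and 0.00 for expressed genes. These comparisons share libraries, so they are not independent of one another.

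**Figure D2:**
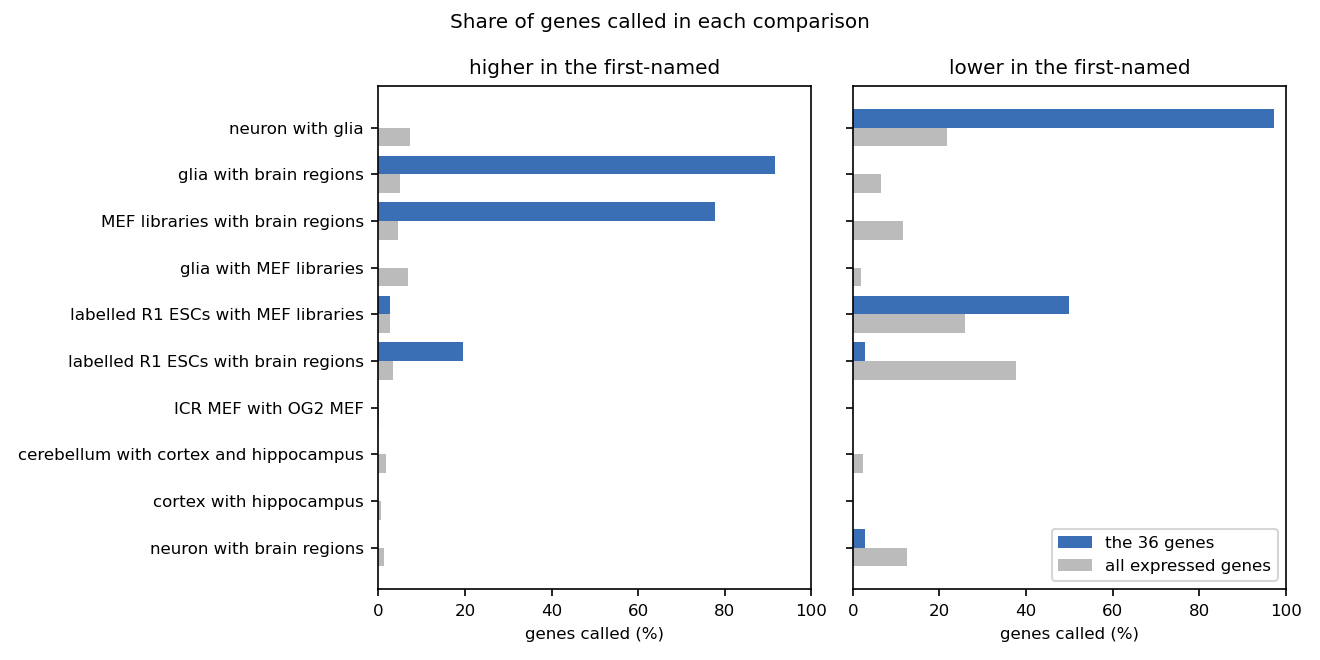
Share of the 36 genes (blue) and of all expressed genes (grey) called higher (left) or lower (right) in the first-named side of each of 10 comparisons, in percent. Blue bars exceed 75% for neuron lower than glia, glia higher than brain regions and MEF libraries higher than brain regions.

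Among the kinases, cyclins and entry factors, all 8 genes were lower in neuron than in glia and higher in glia than in the brain regions. Cdk1, the kinase that drives entry into mitosis (ENSMUSG00000019942, chromosome 10, 69335146 to 69352938, mm10), stood at 288 TPM in glia, 166 TPM in ICR MEF, 188 TPM in OG2 MEF and 9.26 TPM in the library labelled R1 ESCs. It was at 1.37 TPM in cerebellum, 1.34 TPM in cortex, 1.31 TPM in hippocampus and 1.13 TPM in neuron. Levels in glia and the MEF libraries did not overlap those in the brain regions and neuron, and glia exceeded neuron 255-fold (87.0 to 1240), a ratio that rests on 3 counts in neuron. Cdc25c, the phosphatase that removes the inhibitory phosphates from Cdk1, had the lowest mean of this group. It stood at 18.2 TPM in glia, 11.4 TPM in ICR MEF, 9.93 TPM in OG2 MEF, 3.09 TPM in the library labelled R1 ESCs, 2.18 TPM in neuron, and 0.24, 1.23 and 1.07 TPM in cerebellum, cortex and hippocampus. It missed the call for MEF over brain because OG2 MEF lay just under 10 TPM, at a fold of 8.07 (3.26 to 25.8) between the nearest libraries.

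Cyclin B1 (Ccnb1), the main partner of Cdk1, kept a near constant ratio of TPM to that of Cdk1 in glia and the MEF libraries, at 0.40 (0.36 to 0.45) in glia, 0.44 (0.38 to 0.50) in ICR MEF and 0.43 (0.38 to 0.49) in OG2 MEF. All 3 intervals overlap. In the library labelled R1 ESCs the ratio was 0.74 (0.46 to 1.21), on 46 and 31 counts. That interval lay above the interval of glia and overlapped those of the MEF libraries. The cyclins Ccna2 and Ccnb2, the polo kinase Plk1, the spindle pole kinase Aurka and the transcription factor Foxm1, which drives many of these genes, lay between 43.6 and 121 TPM in glia, and between 0.38 and 3.34 TPM in the brain regions and neuron. Aurka was 1 of the few genes whose highest level was not in glia: OG2 MEF had 47.8 TPM, glia 47.3 TPM and ICR MEF 45.4 TPM, levels that do not differ beyond counting error (glia to OG2 MEF 0.99-fold, 0.82 to 1.19). Expected counts of Ccna2 were not whole in any library, which in such estimates arises where reads are shared between genes, and its values are uncertain to that extent.

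Of the 6 spindle checkpoint and anaphase genes, 5 were lower in neuron than in glia, and the same number was higher in glia and in the MEF libraries than in the brain regions. Ttk, the kinase that starts checkpoint signalling, had the lowest mean of this group, with 20.02 TPM in glia, 10.02 TPM in ICR MEF, 10.2 TPM in OG2 MEF and 2.95 TPM in the library labelled R1 ESCs. Its levels in the brain regions and neuron were between 0.48 and 1.42 TPM, on 3 or 4 counts each. Bub1 and Bub1b, checkpoint kinase and pseudokinase of the kinetochore, were at 30.9 and 52.4 TPM in glia, 19.98 and 34.5 TPM in ICR MEF and 20.6 and 29.8 TPM in OG2 MEF. Cdc20, the activator of the anaphase-promoting complex, was at 101 TPM in glia, 106 TPM in ICR MEF and 82.2 TPM in OG2 MEF, against 3.85, 1.61 and 0 TPM in cerebellum, cortex and hippocampus. In hippocampus 0 counts allow up to 3 counts, and glia and ICR MEF did not differ beyond counting error (0.95-fold, 0.83 to 1.08). Ube2c, the ubiquitin-conjugating enzyme that works with that complex, reached 150 TPM in glia, 128 TPM in ICR MEF, 95.1 TPM in OG2 MEF and 123 TPM in the library labelled R1 ESCs, and 1.21 to 3.62 TPM in the brain regions and neuron.

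Pttg1, securin, holds the protease separase inactive until anaphase, and it followed another order. It stood at 65.3 TPM in cerebellum, 54.7 TPM in cortex, 79.5 TPM in hippocampus, 54.2 TPM in glia and 106 TPM in neuron, and at 58.6 TPM in ICR MEF, 65.1 TPM in OG2 MEF and 46.4 TPM in the library labelled R1 ESCs. The brain regions overlapped glia and the MEF libraries, and the highest value was in neuron, where the other 35 genes were under 10 TPM. Neuron exceeded glia 1.96-fold (1.51 to 2.57), on 181 and 85 counts. Glia and cortex did not differ beyond counting error (1.01-fold, 0.73 to 1.39). Across the 8 libraries the log2 level of Pttg1 had a correlation of -0.46 with the mean of the other 35 genes, whereas all others but Anln, Spc24, Cenpa, Birc5 and Bub1 lay at 0.90 or above. That coefficient describes 8 libraries of different kinds and carries no test. The gene's window printed above, at the later of its annotated starts, is also 1 of the 3 without a CHR form. The other two, Nuf2 and Nusap1, followed the common order, with coefficients of 0.95 and 0.91.

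The chromosomal passenger complex joins the kinase Aurkb to Incenp, Birc5 (survivin) and Cdca8 (borealin) at centromeres and later at the midzone. All 4 genes were lower in neuron than in glia and higher in glia than in the brain regions. Aurkb stood at 57.6 TPM in glia, 32.8 TPM in ICR MEF, 29.3 TPM in OG2 MEF and 4.41 TPM in the library labelled R1 ESCs, and at 0.25, 0.53, 0 and 1.88 TPM in cerebellum, cortex, hippocampus and neuron. Birc5 was at 105 TPM in glia, 112 TPM in ICR MEF, 99.0 TPM in OG2 MEF and 128 TPM in the library labelled R1 ESCs, and at 0, 1.68, 1.17 and 7.74 TPM in the same 4 libraries. The 2 partners therefore stood in different ratios: Birc5 to Aurkb was 1.83 (1.54 to 2.18) in glia, 3.41 (2.76 to 4.23) in ICR MEF, 3.38 (2.75 to 4.15) in OG2 MEF and 29.0 (18.9 to 46.3) in the library labelled R1 ESCs. Effective lengths, by which counts are divided, were 801 to 869 bases for Birc5 in these 4 libraries and 1532 to 1806 bases for Aurkb. The ratio of Cdca8 to Aurkb differed less, from 1.38 (1.17 to 1.63) in glia to 2.41 (1.43 to 4.16) in that library.

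Incenp, the scaffold of the complex, was not near 0 in brain. It stood at 12.2 TPM in cerebellum, 12.2 TPM in cortex, 8.50 TPM in hippocampus and 6.88 TPM in neuron, against 55.9 TPM in glia, 32.6 TPM in ICR MEF, 28.6 TPM in OG2 MEF and 13.9 TPM in the library labelled R1 ESCs. The order of libraries was that of most genes while the spread was smaller, with glia 4.59-fold (3.63 to 5.84) above cortex. OG2 MEF was 2.35-fold (1.84 to 3.03) above cortex, short of a call.

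**Figure D3:**
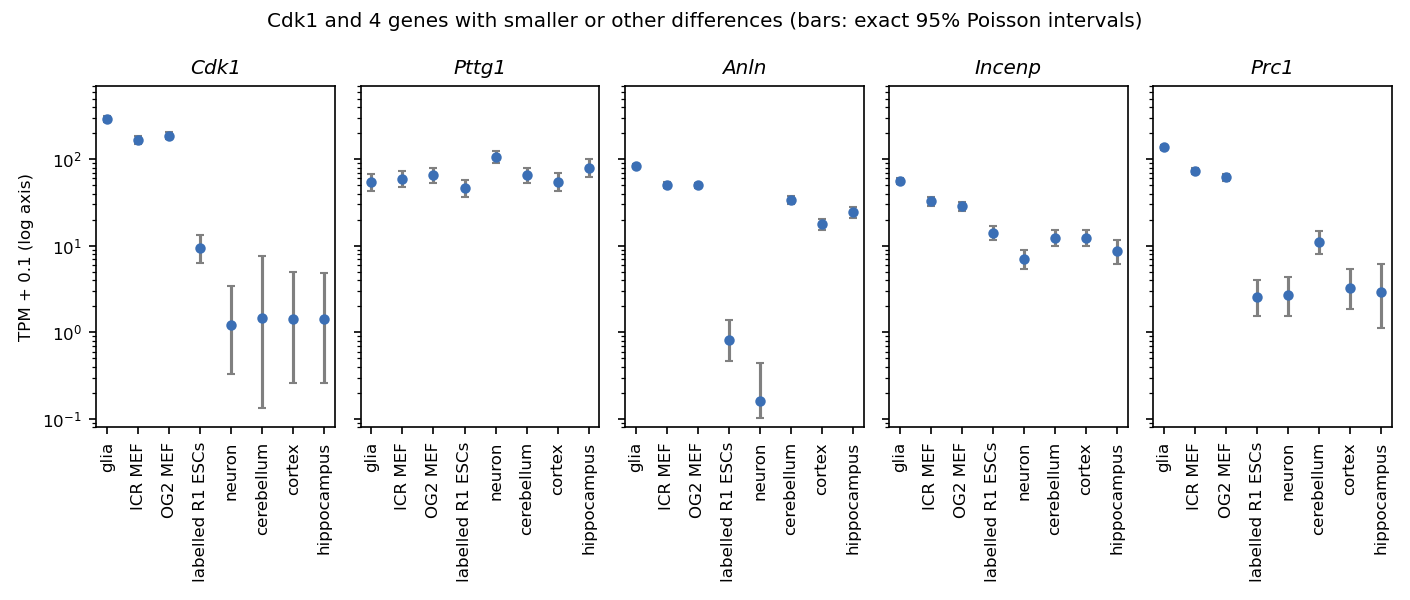
Level of Cdk1 and of 4 genes with smaller or other differences, as TPM + 0.1 on a log axis, in each of the 8 libraries. Points are single libraries and bars are exact 95% Poisson intervals from the expected counts. Cdk1 stands at 166 TPM or more in glia and MEF and under 1.5 TPM in the brain regions and neuron, Pttg1 is near level, Anln is near 0 only in neuron and the library labelled R1 ESCs, and Prc1 stands higher in cerebellum than in cortex or hippocampus.

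Of the 7 centromere and kinetochore genes all were lower in neuron than in glia, 6 were higher in glia and 4 in the MEF libraries than in the brain regions. Cenpa, the histone H3 variant that marks the centromere, stood at 77.5 TPM in glia, 58.0 TPM in ICR MEF, 57.5 TPM in OG2 MEF and 172 TPM in the library labelled R1 ESCs, and at 4.58, 3.64, 6.23 and 2.33 TPM in cerebellum, cortex, hippocampus and neuron. Cenpf, a large outer kinetochore protein, was at 31.1 TPM in glia, 10.3 TPM in ICR MEF, 4.49 TPM in OG2 MEF and 2.60 TPM in the library labelled R1 ESCs, and between 0.23 and 0.51 TPM in the brain regions and neuron. The 2 genes had opposite places among glia, the MEF libraries and the library labelled R1 ESCs, Cenpa being highest and Cenpf lowest in the last. The kinesin Cenpe, which carries chromosomes along spindle microtubules, had 29.2 TPM in glia, 12.6 TPM in ICR MEF, 8.01 TPM in OG2 MEF and 0.27 to 0.97 TPM in the brain regions and neuron. Expected counts of Cenpf were not whole in any of the 8 libraries, and its values are uncertain for shared reads.

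Ndc80, Nuf2, Spc24 and Spc25 form the NDC80 complex, 1 copy of each, which binds the microtubule. Ndc80 stood at 35.8 TPM in glia, 20.3 TPM in ICR MEF and 15.6 TPM in OG2 MEF, at 1.11 TPM in neuron, and at 0.17 to 0.31 TPM, on a single count each, in the brain regions and the library labelled R1 ESCs. Nuf2 was at 92.1, 36.3 and 27.9 TPM in glia, ICR MEF and OG2 MEF, 3.99 TPM in the library labelled R1 ESCs and between 1.02 and 4.30 TPM in the brain regions and neuron. Spc25 was at 107, 33.6 and 28.6 TPM in glia, ICR MEF and OG2 MEF, 2.38 TPM in the library labelled R1 ESCs and 1.29 to 1.62 TPM in the brain regions and neuron. These 3 subunits were low together in the library labelled R1 ESCs, as in brain.

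Spc24 was the exception. It stood at 27.0 TPM in glia, 22.9 TPM in ICR MEF, 20.9 TPM in OG2 MEF and 162 TPM in the library labelled R1 ESCs, and at 6.74, 2.83, 2.79 and 3.79 TPM in cerebellum, cortex, hippocampus and neuron. The ratio of Spc24 to Spc25 in TPM was 0.25 (0.20 to 0.32) in glia, 0.68 (0.50 to 0.93) in ICR MEF, 0.73 (0.54 to 0.99) in OG2 MEF and 68.1 (32.8 to 170) in the library labelled R1 ESCs, where it rests on 564 and 7 counts. Both MEF ratios lay above that of glia beyond counting error. Spc24 was also the only 1 of the 36 genes called higher in the library labelled R1 ESCs than in both MEF libraries, 7.09-fold (5.56 to 9.14) above ICR MEF. Its expected counts were not whole in any library, so its values are uncertain for shared reads, and the part of this in the ratios was not tested.

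**Figure D4:**
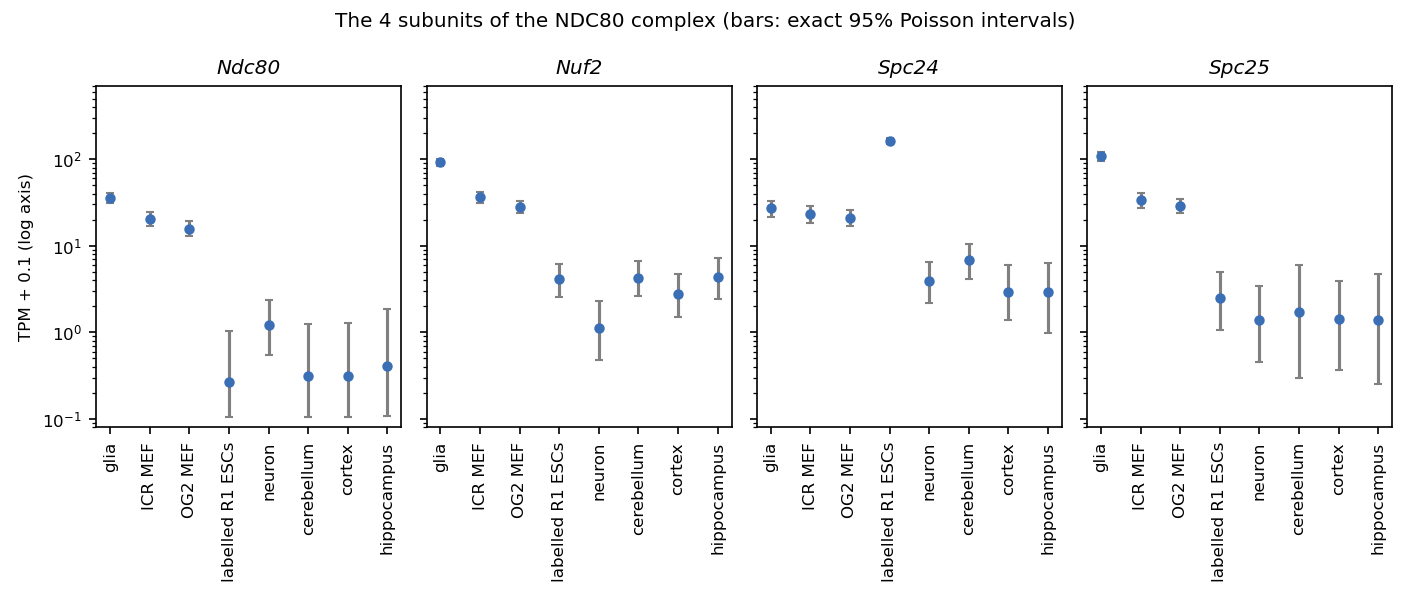
Levels of the 4 subunits of the NDC80 complex in each library, as TPM + 0.1 on a log axis, with points for single libraries and bars for exact 95% Poisson intervals. In the library labelled R1 ESCs Spc24 stands at 162 TPM while Ndc80, Nuf2 and Spc25 lie between 0.17 and 3.99 TPM.

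Both chromosome structure genes were lower in neuron than in glia, and higher in glia and in the MEF libraries than in the brain regions. Top2a, the topoisomerase that untangles sister chromatids, stood at 262 TPM in glia, 113 TPM in ICR MEF, 99.7 TPM in OG2 MEF and 6.55 TPM in the library labelled R1 ESCs, and at 1.34, 3.60, 4.06 and 4.38 TPM in cerebellum, cortex, hippocampus and neuron. Mki67, which coats mitotic chromosomes and is widely used as a marker of dividing cells, was at 90.0 TPM in glia, 39.8 TPM in ICR MEF, 25.6 TPM in OG2 MEF and 24.4 TPM in the library labelled R1 ESCs, and at 0.42, 1.15, 1.21 and 0.49 TPM in the same 4 libraries. The library labelled R1 ESCs thus lay close to OG2 MEF for Mki67 (OG2 MEF 1.05-fold higher, 0.95 to 1.16) and 15.2-fold (11.9 to 19.7) below it for Top2a.

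All 4 genes of spindle motors and microtubule proteins were lower in neuron than in glia and higher in glia than in the brain regions. Tpx2, which activates Aurka on the spindle, stood at 96.9 TPM in glia, 61.3 TPM in ICR MEF, 53.4 TPM in OG2 MEF and 5.85 TPM in the library labelled R1 ESCs, and at 1.58 to 2.36 TPM in the brain regions and neuron. Kif11, the kinesin that pushes spindle poles apart, was at 52.6 TPM in glia, 16.5 TPM in ICR MEF, 13.5 TPM in OG2 MEF, 1.95 TPM in the library labelled R1 ESCs and 0.21 to 1.49 TPM in the brain regions and neuron. Its ratio of glia to MEF was larger than that of Tpx2, at 3.19-fold (2.73 to 3.74) against 1.58-fold (1.43 to 1.75) over ICR MEF. The microtubule depolymerase Kif2c had 42.2 TPM in glia and 0.19 to 1.47 TPM in the brain regions and neuron. Nusap1, a microtubule bundling protein, had 55.7 TPM in glia and 1.01 to 4.96 TPM in the brain regions and neuron, and it was not called in MEF over brain, at 2.57-fold (1.78 to 3.77) between OG2 MEF and cerebellum.

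All 5 midzone and cytokinesis genes were lower in neuron than in glia, and 4 were higher in glia and in the MEF libraries than in brain. Kif23, a subunit of the centralspindlin complex, stood at 46.9 TPM in glia, 23.5 TPM in ICR MEF, 20.8 TPM in OG2 MEF and 8.35 TPM in the library labelled R1 ESCs, and at 0.13 to 1.07 TPM in the brain regions and neuron. Ect2, the exchange factor that activates RhoA at the cell equator, had 67.4 TPM in glia, 19.6 and 18.6 TPM in ICR MEF and OG2 MEF, 0.54 TPM in the library labelled R1 ESCs and 0.31 to 0.76 TPM in the brain regions and neuron. Ect2 had the largest fold from ICR MEF to glia of the 36, at 3.44 (2.94 to 4.03). The midzone kinesin Kif20a stood at 83.5, 78.8 and 72.5 TPM in glia, ICR MEF and OG2 MEF and at 2.86 TPM in the library labelled R1 ESCs. Its level in neuron, 7.33 TPM on 77.1 counts, was above the 0 to 1.06 TPM of the brain regions (6.92-fold over cortex, 3.43 to 17.1). Counts of Kif20a were not whole in 7 libraries, so this level is uncertain for shared reads.

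Prc1, which bundles the midzone microtubules, was at 137 TPM in glia, 73.4 TPM in ICR MEF, 61.7 TPM in OG2 MEF and 2.48 TPM in the library labelled R1 ESCs. It was at 11.02 TPM in cerebellum, 3.18 TPM in cortex, 2.79 TPM in hippocampus and 2.58 TPM in neuron. Cerebellum was 3.47-fold (1.85 to 6.87) above cortex, on 42 and 14 counts. Between cerebellum and the other 2 regions none of the 36 genes was called higher (1.68% of expressed genes) or lower (2.25%), and the median log2 ratio was -0.06 against 0.07. Between cortex and hippocampus none was called higher (0.587%) or lower (0.319%), with a median of 0.00 against 0.02. Few of the 36 genes could be called between regions. In cerebellum 4 of them reached 10 TPM, in cortex 3 and in hippocampus 2, against 66.8% to 68.0% of expressed genes.

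Anln, anillin, is the scaffold of the contractile ring and is also known as a protein of central myelin. It stood at 33.7 TPM in cerebellum, 17.6 TPM in cortex and 24.4 TPM in hippocampus, at 83.2 TPM in glia, 50.4 TPM in ICR MEF and 49.9 TPM in OG2 MEF, and at 0.06 TPM in neuron and 0.72 TPM in the library labelled R1 ESCs. The brain regions held it at levels that no other gene of the 36 but Pttg1 reached there, and neuron had 1 count. Neuron was 294-fold (50.9 to 11400) below cortex. Anln was thus the single gene of the 36 called lower in neuron than in the brain regions (12.5% of expressed genes). None was called higher (1.28%), and the median log2 ratio was -0.18 against -1.05. Few of the 36 could be called either way, as 2 reached 10 TPM in hippocampus (66.8% of expressed genes) and 1 in neuron (47.0%). The 8 oligodendrocyte markers summed to 4524 to 6074 TPM in the brain regions, 155 TPM in glia (of which Cnp 147 TPM), 34.3 TPM in neuron and 15.1 to 21.2 TPM elsewhere. Among them Mbp stood at 3545 TPM in cerebellum, 2543 TPM in cortex and 3391 TPM in hippocampus, the same order as Anln, against 16.8 TPM in neuron, 4.02 TPM in glia and 3.43 TPM or less in the other 3. Mog and Mobp were at 0 in glia and both MEF libraries, so the Anln level of those libraries was measured with these myelin genes at 0. The part of oligodendrocyte RNA in the Anln level of the brain regions was not tested.

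No gene of the 36 was called between glia and the MEF libraries, in either direction (6.82% and 1.98% of expressed genes). The levels were nevertheless graded: glia lay above both MEF libraries for 32 of the 36 genes, against 64.6% of expressed genes, and for 28 of them the counting interval of the ratio to the nearer MEF library lay above 1. That count of intervals was not made over expressed genes. The median log2 ratio was 0.72, against 0.47 for expressed genes, so part of the shift was that of all genes. Ratios were largest for Cenpf (log2 2.03), Nusap1 (1.81), Ect2 (1.77), Spc25 (1.76) and Kif11 (1.75), and near 0 for Birc5, Aurka, Cdc20 (0.11) and Kif20a (0.14). Without ICR MEF, Cenpf and Nusap1 were called higher in glia. Over the 36 genes the log2 ratio had a Spearman coefficient of 0.55 with effective length and -0.66 with GC content of the transcripts, against 0.16 and -0.19 over 15629 expressed genes with a GC value. These coefficients run across genes of the same libraries and are descriptions. The part of length or base composition in the grading was not tested.

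Between ICR MEF and OG2 MEF no gene was called higher (0.242% of expressed genes) or lower (0.0829%). Levels in the 2 libraries kept nearly the same order over the 36 genes (Spearman 0.97, a description). ICR MEF was higher for 29 of the 36, against 58.1% of expressed genes, with a median log2 ratio of 0.18 against 0.06. The interval lay above 1 for 12 genes in favour of ICR MEF and for none in favour of OG2 MEF. Intervals were not counted over expressed genes, so this count has no background. Cenpf differed most, at 2.29-fold (1.88 to 2.81), followed by Cenpe at 1.58-fold (1.31 to 1.90) and Mki67 at 1.56-fold (1.42 to 1.70), while Cdk1 was 1.13-fold higher in OG2 MEF (0.99 to 1.29).

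The library labelled R1 ESCs split the 36 genes. Against both MEF libraries 18 were lower (25.9% of expressed genes) and 1, Spc24, was higher (2.61%). A lower call needs 10 TPM in both MEF libraries. OG2 MEF reached it for 33 of the 36 genes and for 52.0% of expressed genes, so the shares differ in how many genes could be called. The median log2 ratio was -2.14, against -1.26 for expressed genes, so a lower level was shared by most genes of the library. The lower genes included Anln at 69.3-fold (38.4 to 139), Kif20a at 25.4-fold (17.6 to 38.7), Prc1 at 24.9-fold (15.4 to 43.0), Cdk1 at 17.9-fold (12.4 to 26.7), Top2a at 15.2-fold and Plk1 at 14.1-fold (9.16 to 22.8) from the nearer MEF library. By contrast Ube2c, Birc5, Nusap1, Mki67 and Pttg1 lay within counting error of 1 of the MEF libraries, and Cenpa was 2.97-fold (2.47 to 3.58) above ICR MEF. Only under some scalings was Cenpa called: it was called with TMM factors of the counts or of the TPM, with counts per library total (CPM) and with the length trend removed.

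Those scalings moved the median of all expressed genes from -1.26 to -0.83 (TMM factors of the counts), -0.57 (CPM), -0.18 (TMM factors of the TPM) and 0.00 (length trend removed). The median of the 36 genes remained below that of expressed genes, by 0.64, 0.42, 0.24 and 0.67 on the log2 scale, against 0.88 in TPM. Under 12 settings in all, Cdk1, Bub1, Top2a, Kif20a, Prc1 and Anln were called lower in each, and Spc24 was called higher in each. The count of lower genes ranged from 8, with TMM factors of the TPM (10.97% of expressed genes), to 19, without OG2 MEF (29.5%).

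Against the brain regions 7 genes were higher in the library labelled R1 ESCs (3.49% of expressed genes), namely Aurka, Cdc20, Ube2c, Birc5, Cenpa, Spc24 and Mki67, and Anln was lower (37.7%). A lower call needs 10 TPM in every brain region, which 2 of the 36 genes reached in hippocampus, against 66.8% of expressed genes. The median log2 ratio was 1.33, against -2.22 for expressed genes, and 28 of the 36 genes lay above all brain regions, against 12.8% of expressed genes. With TMM factors of the TPM 26 genes were called higher (14.3% of expressed genes), with CPM 24 (8.04%) and with TMM factors of the counts 14 (6.36%), so the share of all genes rose with the count. Anln was not called lower with TMM factors of the TPM, with 5 TPM added or with the length trend removed. Birc5 was 76.0-fold (25.8 to 370) above cortex and Cenpa 27.6-fold (11.8 to 85.5) above hippocampus. The counting interval lay above 1 for 20 of the 36 genes in favour of that library and for 1 in favour of brain, a count not made over expressed genes. Ndc80, Bub1, Ect2, Spc25, Plk1 (0.89 to 4.95) and Top2a (0.74 to 4.16) were among the genes that could not be told from brain at this depth. Cenpa, Spc24, Birc5, Ube2c and Cdc20, the 5 leading genes there and so chosen by level, made up 72.9% of the summed TPM of the 36 in that library, against 15.9% in glia, 23.6% in ICR MEF and 21.6% in OG2 MEF. Over the 36 genes log2(TPM + 1) had an SD of 1.93 in that library and 0.90 in glia. Over the 36 genes the log2 ratio to MEF had a Spearman coefficient of -0.23 with effective length and 0.37 with GC content, against -0.31 and 0.18 over expressed genes, and the part of these in the split was not tested.

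**Figure D5:**
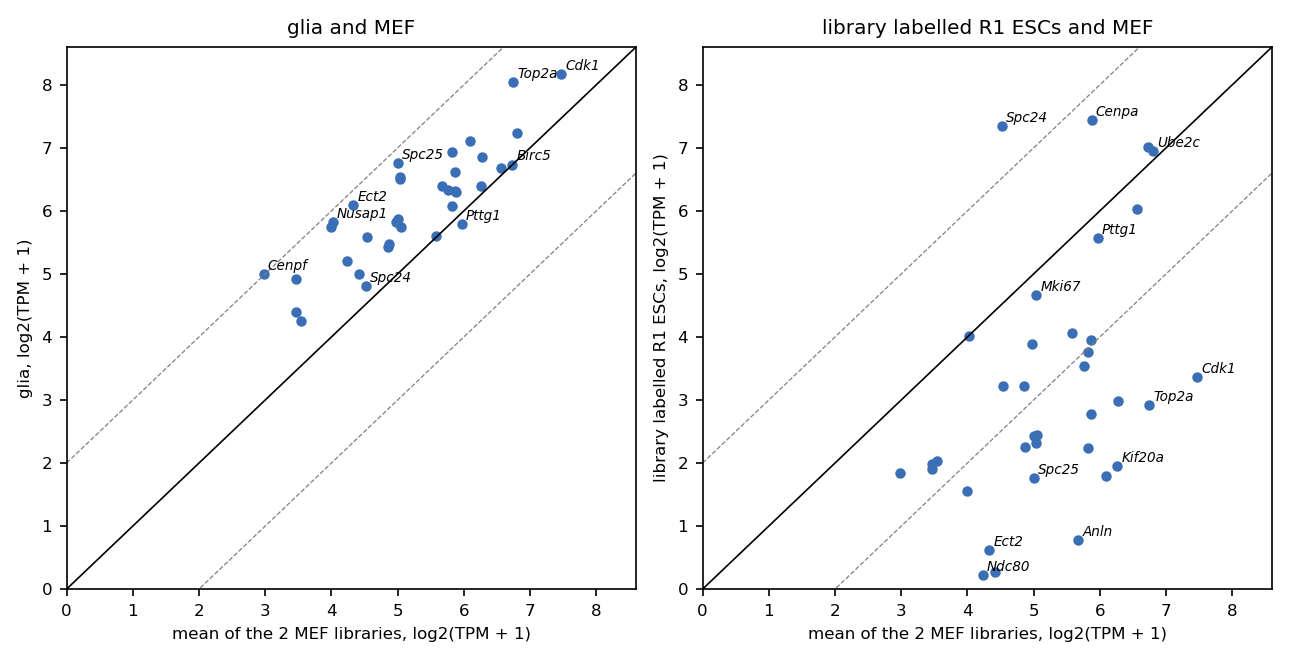
Level of each of the 36 genes in glia (left) and in the library labelled R1 ESCs (right) against the mean of the 2 MEF libraries, all as log2(TPM + 1), with lines for equal levels (solid) and 4-fold differences (dashed). Glia points lie close above the solid line, at a median log2 ratio of 0.72, while those of the library labelled R1 ESCs spread from Spc24 and Cenpa above it to Anln, Cdk1 and Ndc80 more than 4-fold below it.

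Other genes of the cell cycle were counted from 9 lists, in which 153 of 157 symbols were measured. The share of expressed genes called in glia against the brain regions, 5.0% higher and 6.54% lower, is the background for the counts of that comparison. In glia against the brain regions, 15 of 31 further centromere and kinetochore genes were higher and none lower, led by the cohesin protectors Sgo1 and Sgo2a (18.8 and 23.3 TPM in glia, under 0.8 TPM in each brain region), the kinetochore scaffold Knl1 and Cenpn. Of 24 further spindle and cytokinesis genes 18 were higher, led by Ckap2 (142 TPM in glia, 0.72 to 2.08 TPM in the regions), Ckap2l, Hmmr and Aspm. Of 14 further G2/M control genes 8 were higher, led by Gtse1, Cdkn3, Cks2 and Cdca3. Of 18 condensin and cohesin genes 7 were higher, led by Ncapg and Esco2, and of 20 DNA replication genes 9, led by Rrm2 and Tk1. No list had a lower gene in that comparison.

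Of 10 G1 cyclins and kinases 4 were higher, led by Ccnd1 and Ccnd2. None of the 17 genes of the anaphase-promoting complex and none of the 12 of the DREAM and MuvB regulators was called in glia against brain, with median log2 ratios of 0.55 and 0.77, against 2.68 for the further kinetochore genes and 3.62 for the further spindle genes. In glia 4 of 7 Cdk inhibitor genes were higher, Cdkn2a, Cdkn2b, Cdkn1a and Cdkn2c, whose products restrain the cycle. Cdkn1a was at 411 TPM in glia, 481 TPM in ICR MEF and 456 TPM in OG2 MEF, against 22.2, 14.6 and 4.63 TPM in cerebellum, cortex and hippocampus. It was also at 87.8 TPM in neuron and 147 TPM in the library labelled R1 ESCs. Cdkn2c was at 94.5 TPM in glia, 16.6 TPM in ICR MEF and 14.8 TPM in OG2 MEF, and was not called higher in MEF than in brain. Cdkn2a, Cdkn2b and Cdkn1a were called there. High levels of most of the 36 mitotic genes and of Cdkn2a, Cdkn2b and Cdkn1a thus stood together in glia and the MEF libraries, while Cdkn1a was not low in neuron. Zwint, a kinetochore gene picked here after its values were seen, ran against its list, with 707 TPM in cerebellum, 1415 TPM in cortex, 1137 TPM in hippocampus and 359 TPM in glia.

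In the MEF libraries against brain 5 of the 31 further kinetochore genes, 11 of the 24 spindle genes and 7 of the 14 G2/M genes were higher (4.56% of expressed genes), and the spindle gene Cit, the citron kinase of cytokinesis, was lower (11.6%). In neuron against glia 22 of 31, 22 of 24 and 11 of 14 were lower (21.8%). In the library labelled R1 ESCs against MEF 9 of 31, 10 of 24 and 5 of 14 were lower and none higher, against 25.9% and 2.61% of expressed genes, so the kinetochore count lay near the share of all genes. The lower genes were led by Dsn1, Ckap5 and Wee1. Against brain 3 of the 31 kinetochore genes were higher in that library, Cenpm, Pmf1 (172 TPM against 6.11 to 12.1 TPM) and Cenph, and 5 were lower, Zwint, Cenpc1, Mis12, Ska2 and Bub3. Of the spindle genes 3 were higher, Tacc3, Kif22 and Kifc1, and 3 lower, Ckap5, Cit and Numa1. Of the G2/M genes Cks2 and Cks1b were higher and Wee1 was lower. The background of that comparison was 3.49% higher and 37.7% lower.

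Outside these lists, the 8 genes whose log2(TPM + 1) over the 8 libraries was most like the mean of the 36 were Lrrk1 (Pearson r 0.992), Cd109, Ajuba, Dpagt1, Dbf4, Gpx1, Derl2 and Gstm2 (0.982). The ranking by r was made over 8 libraries, among genes whose mean reached 10 TPM. Lrrk1 stood at 53.1 TPM in glia, 34.8 TPM in ICR MEF, 30.0 TPM in OG2 MEF and 7.06 TPM in the library labelled R1 ESCs, and at 0.85 to 2.73 TPM in the brain regions and neuron. Dpagt1 had a high coefficient over a far narrower range, from 16.5 TPM in neuron to 46.2 TPM in glia.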

How the data were processed

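Trizol extraction and a TruSeq kit from Illumina are given in the labels' protocols. The submitters' processing notes name Bowtie, RSEM and the build mm10; their versions, the annotation release and strandedness are stated in no source used here. The authors deposited, per the file headers, expected counts, TPM and effective lengths for 29713 genes in each library. The 36 genes, the other lists and the rules were chosen with earlier results of these data known. Effective length differed more than 1.5-fold between libraries for 16 of the 36 genes (Ccnb1, 278 to 2321 bases), so TPM on a few counts depends on it, and 246 of their 288 count values were whole. Coordinates and GC content came from GENCODE M21 by identifier, symbols from a table matching 29202 genes, and promoters from RefSeq.

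Each group held 1 library and no test was run. The 10 comparisons, the calling rule (10 TPM, 4-fold, 1 TPM added), folds of TPM with exact Clopper-Pearson intervals (a side at 0 counts set at 3) and medians over expressed genes were computed with scipy 1.17.1, pandas 2.3.3 and numpy 2.4.6 under Python 3.11.15, and drawn with matplotlib 3.10.9. TMM factors came from edgeR 4.0.16 in R 4.3.3. Alternatives were 0.1 or 5 TPM added, a floor of 1 TPM or none, 3 other scalings, removal of the length trend in 20 bins, thinning to 2145515 counts, and leaving out each library. Tested on simulated data with counting error alone, in 29713 genes, the rule called 100 of 100 genes set 8-fold apart and 0 of 100 set 2-fold apart for neuron with glia, glia with brain regions and the library labelled R1 ESCs with MEF, and 8, 1 and 5 unchanged genes. The genes set apart were drawn from those at 10 TPM or more and raised in the first-named side. The simulation therefore does not cover lower calls, or genes as low as most of the 36 are in brain and neuron. Genes named are the 36, with every library for the highest and lowest mean of each role and for genes of another order; up to 4 called genes of each list, by ratio; and the 8 most alike outside the lists, without predicted, ribosomal and histone genes.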

Additional observations from a re-analysis of the deposited data

How the results depend on the processing

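Of 220 alternative counts of called genes, 201 stayed within 1.5 times the main count, and all comparisons not named here did so throughout. For the library labelled R1 ESCs with MEF (18 lower, 1 higher), the lower count was 11 with 5 TPM added, 8 with TMM factors of the TPM, 11 with CPM and 9 with the length trend removed; the higher count was 2, 3 (TMM factors of the TPM), 2 and 2 with TMM factors of the counts, of the TPM, CPM and the length trend removed. For that library with brain (7 higher, 1 lower) the higher count was 14 with TMM factors of the counts, 26 with those of the TPM, 24 with CPM and 12 with the length trend removed, and the lower count was 0 with TMM factors of the TPM, with 5 TPM added and with the length trend removed. For neuron with brain regions the higher count was 1, Kif20a, with a floor of 1 TPM, no floor or CPM. Shares of all expressed genes called also moved under several of these settings, as given above, so these counts cannot be read alone. The causes were not tested. Leaving out 1 library moved 1 of 40 counts: for glia with MEF the higher count ranged from 0 to 2, the 2 being Cenpf and Nusap1 without ICR MEF. In the brain regions and neuron 8 to 14 of the 36 genes rested on at most 3 counts, so differences of a few fold in those genes were not detectable at this depth. No paired analysis was possible because each group held 1 library. A planned count of degradation motifs in the proteins was not run.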
